A study of Caenorhabditis elegans with 8 samples.

Results

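The genes described here are 9 regulators of the molting cycle and of developmental timing in Caenorhabditis elegans: lin-42, kin-20, tim-1, nhr-23, nhr-25, nhr-85, grh-1, blmp-1 and bed-3. They were chosen by name, and every non-control probe of the array that carries the systematic name of one of these genes was taken. This gave 26 of 43603 probes, for 9 of 19794 genes. Their RNA was measured in embryos that had not yet hatched, in aptf-1 mutants and in wild type.

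Larvae of C. elegans replace their cuticle at each molt, and many genes are switched on and off once per larval stage. Several of the genes that time this cycle are relatives of circadian clock genes of flies and mammals, although the worm cycle follows developmental stages and not the day. Nuclear hormone receptors and epidermal transcription factors drive the genes for matrix proteins, proteases and collagens. The embryo makes the first cuticle, that of the first larval stage, before it hatches, and at the pretzel stage the elongated embryo is folded inside the eggshell.

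APTF-1 is an AP-2 family transcription factor that the sleep-active neuron RIS needs to induce sleep, and the arrays compared embryos with and without it. There were 4 samples of aptf-1(gk794) mutants and 4 of N2, the wild-type strain. All samples were total RNA of whole hermaphrodite pretzel-stage embryos from cultures on OP50 bacteria, with about 3000 individually picked embryos per sample. The labels give a growth temperature of 21.5°C, whereas the general methods of the study give a higher one. The allele gk794 is a deletion, so the mutation is present in every cell of the embryo, whereas RIS is 1 cell. The methods of the study call the samples of a genotype biological samples, and neither they nor the labels say whether the embryos came from separate cultures. The p-values therefore measure the spread between these samples. In whole embryos, fewer cells of a type and less RNA per cell cannot be told apart.

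Each sample was hybridised to one 1-colour Agilent array, and the 8 arrays lay on 2 slides with 2 arrays of each genotype per slide. The scanner software marked 79.4% to 83.1% of the probes of an array as well above background, and the arrays correlated with each other at 0.972 to 0.996. Values are log2 intensities relative to the 75th percentile of the array, so that 0 is the 75th percentile. The probe of aptf-1 read -1.53 ± 0.19 in aptf-1 mutants and 0.53 ± 0.23 in N2 (SD, n = 4 each), a log2 difference of -2.05 (adjusted p = 0.00302, limma), and every mutant array lay below every N2 array. Where this probe lies relative to the deletion is not known here. Of 6 genes of early zygotic transcription, tbx-37 and tbx-38 carried the mark well above background on 0 arrays, pes-10 on 1 and end-1 on 2, but end-3 and med-1 on all 8. Markers of muscle, pharynx, neurons, epidermis and the late embryo carried it on all 8. So did the 12 markers of the early embryo and germ line, such as pie-1 and egg-1. Of the markers of adults and sperm, vit-6 and spe-9 carried it on all 8, msp-142 on 5 and vit-2 on 4. The mark alone therefore does not set the stage.

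All 9 regulators gave signal above background before the first larval stage. Each gene had at least 1 probe that carried the mark well above background on all 8 arrays, and 21 of the 26 probes did so. The mark is common on these arrays: 79.4% to 83.1% of all probes carried it on a single array. The share of all probes with it on all 8 arrays was not computed. The exceptions were probes of single transcripts. The lin-42 probe named for transcript F47F6.1c was well above background on 0 of 4 aptf-1 and 1 of 4 N2 arrays, whereas the probe for F47F6.1b was so on all 8. The 3 nhr-23 probes for transcript C01H6.5c were well above background on no more than 1 aptf-1 array and on 0 N2 arrays. The probe of nhr-23 with a RefSeq name was well above background on 4 aptf-1 and 3 N2 arrays and was kept. The test took in the 22 probes with that mark on 4 or more of the 8 arrays, and the value of a gene is the mean of its tested probes. Because probes differ in how strongly they bind, levels are compared between samples of the same gene and not between genes.

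No regulator differed between the genotypes by the criteria of the comparison, an adjusted p under 0.05 (limma, Benjamini-Hochberg adjustment over all tested probes) and a fold change of at least 1.5. This was so for 0 of 22 member probes, where 0.0504% of the 35739 tested probes passed (18 probes, of which aptf-1 gave 1). In the fit on gene means 0 of 9 members passed, against 0.041% of the 17066 tested genes. Without adjustment, 2 of 22 probes had p under 0.05 (limma), where the share over all tested probes was 2.94%. Both were probes of nhr-25 and higher in the mutants, a direction in which 0.87% of all probes had such a p. Of the 9 genes 0 had p under 0.05, against 3.23% of all genes. No member probe separated the genotypes, that is, no probe had all its mutant values on one side of all its N2 values, which 2% of all tested probes had. The same held for the 9 gene values, beside 2.16% of all genes. The log2 difference was above 0 for 7 of 9 genes and 15 of 22 probes, against 44.8% of all genes and 46.8% of all probes. The median over the 9 genes was 0.188, beside -0.0175 over all genes. Without N2 replicate 4 the median of the 9 was -0.0273.

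**Figure D1:**
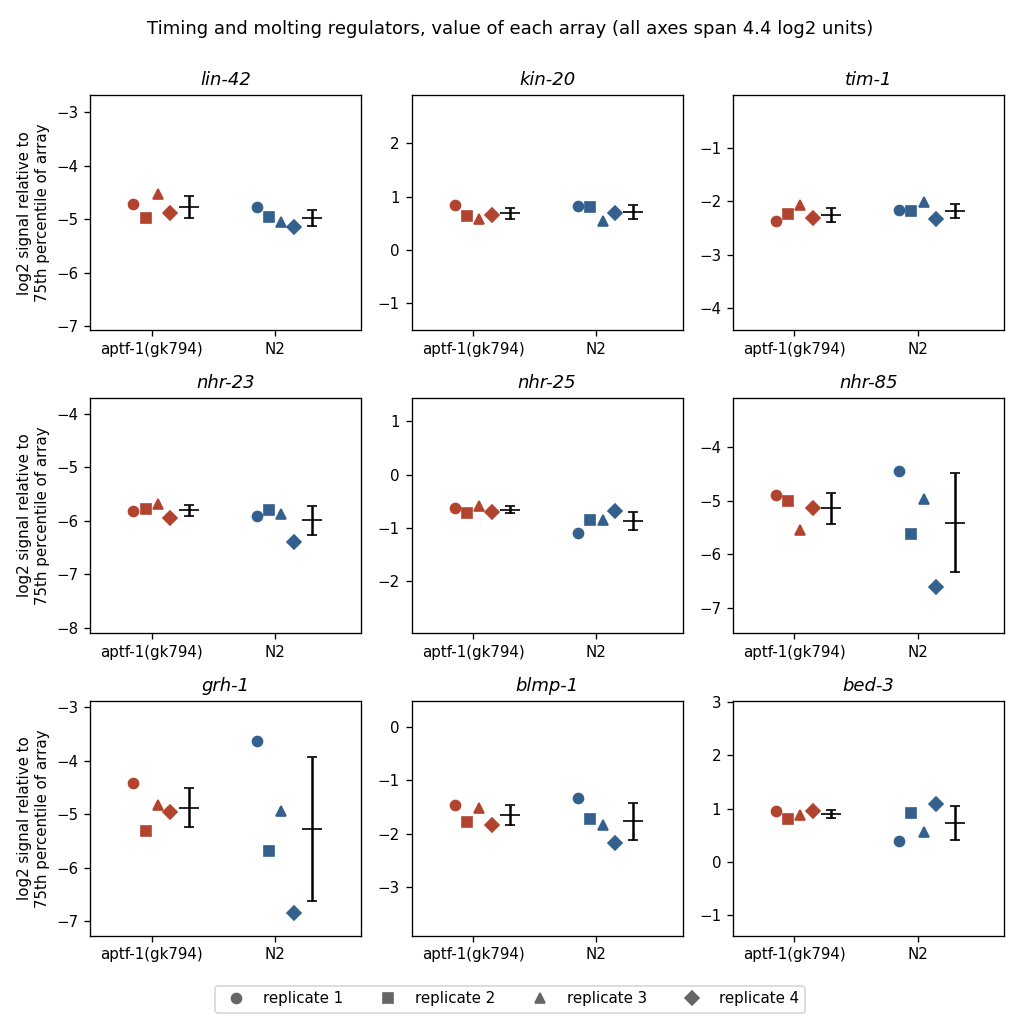
Value of each of the 9 regulators on each array, as log2 signal relative to the 75th percentile of the array, with aptf-1(gk794) left of N2, a symbol per replicate, and the mean ± SD (n = 4) as a black bar beside the points. The genotypes overlap in every panel, and the N2 points of grh-1 (-6.85 to -3.63) and nhr-85 (-6.61 to -4.44) spread most.

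Among the relatives of clock genes, lin-42 is the worm relative of Period, and its protein rises and falls with each molt. It read -4.71, -4.98, -4.52 and -4.89 on the aptf-1 arrays, against -4.77, -4.96, -5.04 and -5.14 on the N2 arrays. The highest value was in a mutant sample and the lowest in an N2 sample, but 2 of the N2 values lay above the lowest mutant value. lin-42 thus differed by 0.20 on the log2 scale (95% interval -0.09 to 0.50; exact two-sided permutation test, p = 0.171). Slide 1 alone gave 0.02 and slide 2 alone 0.39. When the dim probe of transcript F47F6.1c was averaged in, the difference turned to -0.10.

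kin-20 encodes a casein kinase 1, related to Doubletime of flies. Its signal lay above the 75th percentile on every array. It read 0.84, 0.65, 0.59 and 0.67 in aptf-1 mutants, against 0.83, 0.80, 0.54 and 0.69 in N2. Both genotypes covered nearly the same range, and the log2 difference was -0.03 (95% interval -0.26 to 0.20). The sign of so small a value depended on the setting: it was kept in 19 of 25 alternatives.

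tim-1 is related to Timeless of flies and is known in worms for its part in chromosome cohesion. Its 3 probes averaged -2.38, -2.23, -2.08 and -2.32 in aptf-1 mutants and -2.17, -2.18, -2.02 and -2.33 in N2. The values of the mutants lay inside the range of N2 except for the lowest, which was just below it. The 3 probes differed by -0.09, -0.06 and -0.08, and the gene by -0.08 (95% interval -0.32 to 0.16).

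Among the nuclear receptors, nhr-23 is the relative of ROR and of fly DHR3 and is required for molting. The mean of its 6 tested probes was -5.81, -5.78, -5.69 and -5.95 in aptf-1 mutants and -5.92, -5.80, -5.86 and -6.39 in N2. In this mean N2 replicate 4 was lower than the other 7 samples, which lay within 0.264 of each other on the log2 scale. The probes were not alike in this. A probe for transcript C01H6.5b read -5.13 on N2 replicate 4, above the other N2 samples. Another for that transcript read -3.23 there, against -3.25 on N2 replicate 1. The other tested probes, which are dimmer, were lowest on N2 replicate 4, down to -8.58 for the one with a RefSeq name. The genotypes differed by 0.19 on that scale (95% interval -0.13 to 0.51). The differences of the single probes ranged from 0.02 to 0.41, and without N2 replicate 4 the difference of the gene was 0.06.

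nhr-25 is the relative of fly FTZ-F1 and mammalian SF-1, and it acts in epidermal development and molting. The mean of its 5 probes was -0.62, -0.73, -0.59 and -0.71 in aptf-1 mutants and -1.10, -0.85, -0.85 and -0.68 in N2. All mutant samples except replicates 2 and 4 lay above all N2 samples, and N2 replicate 1 was the lowest. The log2 difference was 0.21 (95% interval -0.03 to 0.45). Before adjustment p was 0.0798 (limma), the smallest of the 9 genes, and after adjustment over all genes it was 1.

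The 5 probes of nhr-25 did not behave alike. The 3 probes named for transcript F11C1.6a had log2 differences of -0.06, 0.13 and -0.03. The other 2, one named for transcript F11C1.6b and one with a RefSeq name, had differences of 0.52 (SE 0.18) and 0.49 (SE 0.21), and these are the 2 probes with p under 0.05 before adjustment (0.0163 and 0.0444, limma). Their adjusted p was 1 over all probes.

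The mean of these 2 probes was -3.60, -3.74, -3.31 and -3.89 in aptf-1 mutants and -4.56, -4.14, -4.05 and -3.82 in N2. All mutant samples lay above N2 replicates 1, 2 and 3, while N2 replicate 4 lay above mutant replicate 4 and below the others. Taken relative to the mean of the transcript a probes, the 2 probes were 0.499 higher in the mutants on the log2 scale (exact two-sided permutation test over samples, p = 0.0571, where the smallest p that 4 against 4 allows is 0.0286). Slide 1 alone gave 0.64 and slide 2 alone 0.36, and the value was 0.358 to 0.616 with an array left out or with another scaling, background correction or source of the values. With array weights, however, the differences of the 2 probes shrank to 0.168 and 0.362. They were 0.388 and 0.328 with normexp background correction, and 0.425 and 0.315 without N2 replicate 1. The transcript a probes averaged 1.32 in the mutants and 1.31 in N2, so the contrast sets dim probes against bright ones. The contrast between the probes was chosen after their values were seen, and both probes read the same gene on the same arrays, so they are not independent.

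**Figure D2:**
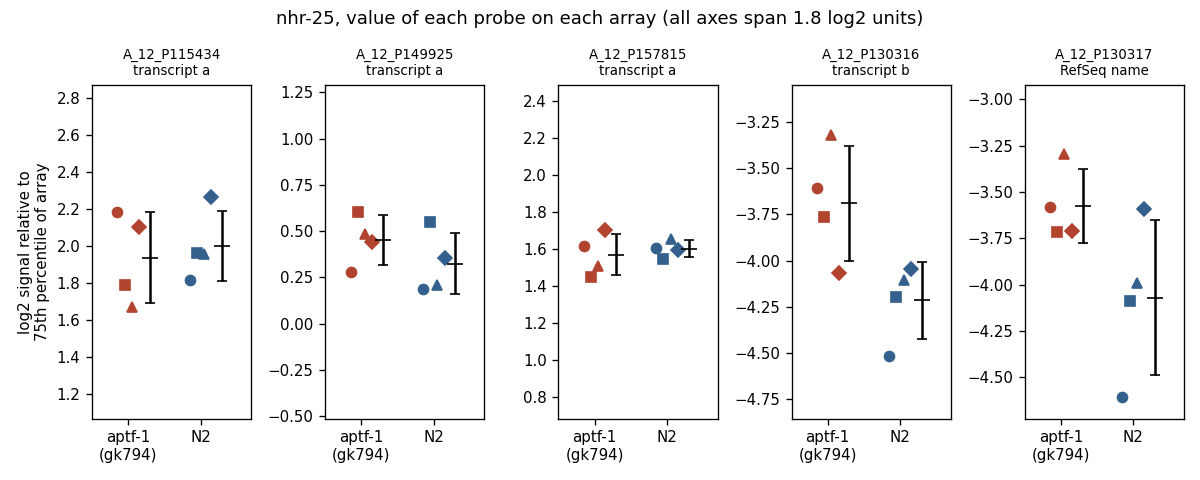
Value of each of the 5 nhr-25 probes on each array (log2 signal relative to the 75th percentile of the array), aptf-1(gk794) left of N2, symbols for replicates 1 to 4 (circle, square, triangle, diamond) and mean ± SD as black bars. The 3 probes of transcript a differ by -0.06, 0.13 and -0.03, the other 2 by 0.52 and 0.49.

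nhr-85 is the relative of Rev-erb and of fly E75. Its single probe read -4.88, -5.01, -5.54 and -5.13 in aptf-1 mutants and -4.44, -5.62, -4.96 and -6.61 in N2. The highest and the lowest sample were both N2, and the mutants lay between them. The log2 difference was 0.26, with an interval of -0.68 to 1.20 that leaves changes above 1.5-fold possible in either direction. Without N2 replicate 4 the difference was -0.136.

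grh-1 encodes the worm Grainyhead, a factor of epidermal barrier genes. Its single probe read -4.42, -5.31, -4.82 and -4.95 in aptf-1 mutants. In N2 it read -3.63, -5.68, -4.95 and -6.85. The extremes were again N2 samples, replicate 1 at the top and replicate 4 at the bottom. In linear terms the mutant samples covered a 1.84-fold range, against a 9.32-fold range in N2, where the signal was 8.1% of the 75th percentile on the array of replicate 1 and 0.87% on that of replicate 4. The log2 difference between genotypes was 0.40 (95% interval -0.93 to 1.74). Slide 1 alone gave -0.21, slide 2 alone 1.01, and all arrays without N2 replicate 4 gave -0.122.

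blmp-1 is the relative of mammalian Blimp-1 and acts with other factors on the timing of epidermal gene expression. Its 3 probes averaged -1.47, -1.78, -1.52 and -1.84 in aptf-1 mutants and -1.33, -1.71, -1.83 and -2.18 in N2. N2 replicate 1 was the highest and N2 replicate 4 the lowest sample, as for grh-1. Between the genotypes it differed by 0.11 on the log2 scale (95% interval -0.30 to 0.52), and by -0.0273 without N2 replicate 4.

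bed-3, a BED zinc finger gene that is needed for molting, went the other way among the N2 samples. It read 0.96, 0.81, 0.88 and 0.96 in aptf-1 mutants and 0.39, 0.91, 0.56 and 1.09 in N2. Here N2 replicate 4 was the highest and N2 replicate 1 the lowest sample, and the 4 mutants lay within 0.149 of each other. For bed-3 the log2 difference was 0.17 (95% interval -0.19 to 0.52), and 0.0505 without N2 replicate 1.

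**Figure D3:**
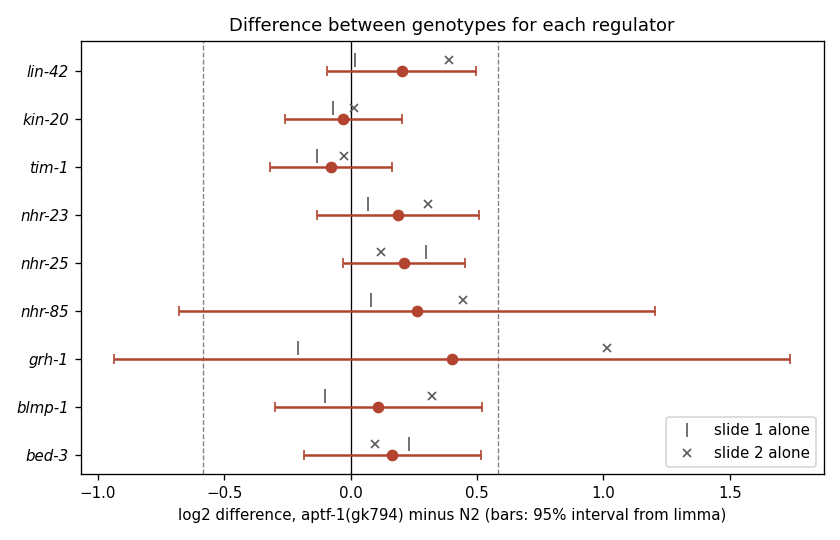
Log2 difference (aptf-1(gk794) minus N2) of each regulator with the 95% interval from limma on 4 samples per genotype, and the difference within each slide as grey marks. All 9 intervals include 0, and 7 lie inside the dashed lines at a 1.5-fold change; those of nhr-85 and grh-1 do not.

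Of the 9 intervals, 7 lay within a 1.5-fold change in either direction, and those of nhr-85 and grh-1 did not. For these 7 genes a change of 1.5-fold or more lay outside the interval. The difference had the same positive sign on both slides for 5 genes: lin-42, nhr-23, nhr-25, nhr-85 and bed-3. On slide 1 it was only 0.02 for lin-42, 0.07 for nhr-23 and 0.08 for nhr-85. The share of all genes with a positive sign on both slides was not computed.

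The spread over samples of one genotype differed strongly between the regulators. The SD over the 4 aptf-1 arrays ranged from 0.0655 for nhr-25 to 0.364 for grh-1, and that over the 4 N2 arrays was 0.13 for tim-1 and 1.35 for grh-1. Over all genes the median SD was 0.166 in the mutants and 0.211 in N2. Of the 9 regulators, 4 exceeded that median in the mutants and 5 in N2. Only grh-1 and nhr-85 were far above it: 99.2% of genes had a smaller N2 SD than grh-1, and 97.8% a smaller one than nhr-85. Both are dim, in the lowest of 4 classes of equal size by level, where the median N2 SD was 0.346. lin-42 lies in the same class and had an N2 SD of only 0.157.

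**Figure D4:**
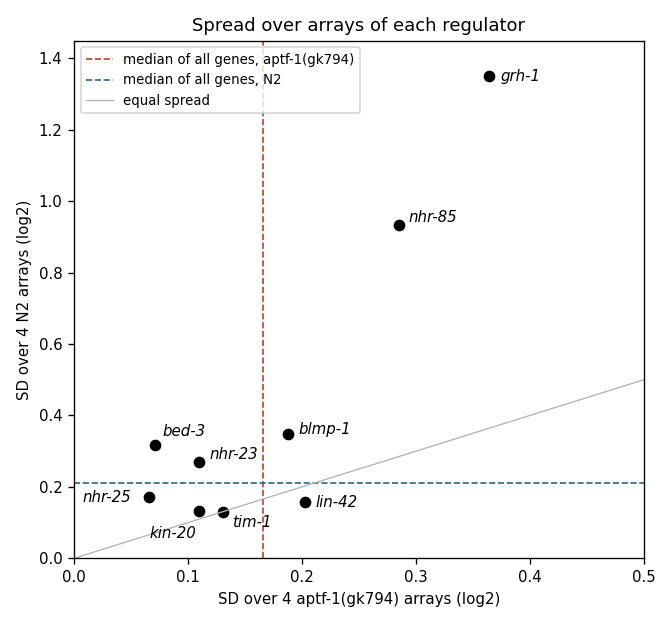
SD over the 4 aptf-1(gk794) arrays (log2, horizontal) and over the 4 N2 arrays (log2, vertical) of each regulator, with dashed lines at the medians of all genes (0.166 in aptf-1 mutants, 0.211 in N2) and a grey line of equal spread. grh-1 (0.364 in the mutants, 1.35 in N2) and nhr-85 (0.285 in the mutants, 0.933 in N2) stand far above the line.

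The N2 samples that set the spread of grh-1 and nhr-85 also stood at the ends of the main axis of variation over all genes. This axis is the first principal component of the deviations of 16932 genes from the mean of their genotype, and it held 40.2% of the variance within genotypes. It was computed after the spread was seen, the regulators are among its genes, and its sign was set by grh-1. The p-values of the relations to it are therefore descriptions and not planned tests. The mutants scored between -0.244 and 0.29, while N2 replicate 1 scored 0.601 and N2 replicate 4 scored -0.658. The deviations of grh-1 followed the axis with a Pearson r of 0.984 and a Spearman rho of 0.976 over 8 arrays (permutation test within genotypes, p = 0.00694 for each, 0.0625 after Benjamini-Hochberg adjustment over the 9 genes). Only 0.638% of genes had a larger absolute r. Without the 2 arrays farthest from the median of the axis, N2 replicates 4 and 1, r of grh-1 was 0.968 (permutation p = 0.0833).

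For the other regulators r fell to 0.56 or less in size without those 2 arrays. nhr-85 had an r of 0.915 and a rho of 0.81 (permutation p = 0.026 and 0.0729, adjusted 0.117 and 0.24), and r was 0.56 without the 2 arrays. For blmp-1 r was 0.864 and rho 0.738 (permutation p = 0.0451 and 0.0799, adjusted 0.135 and 0.24), and without the 2 arrays r was 0.406. bed-3 and nhr-25 ran against the axis, with r of -0.813 and -0.743 and rho of -0.619 and -0.429 (permutation p of 0.0885 and 0.13 for r, 0.267 and 0.389 for rho), and without the 2 arrays r was -0.17 and 0.462. lin-42, nhr-23, kin-20 and tim-1 had r of 0.617, 0.585, 0.343 and 0.293 and rho of 0.619, 0.19, 0.405 and 0.143, with permutation p of at least 0.0885. None of the 9 relations passed after adjustment. Each slide holds 4 arrays, too few for the relation within a slide. The axis is shared by many genes, 8.64% with r of at least 0.9 and 3.61% with r of at most -0.9, and what it stands for was not tested.

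**Figure D5:**
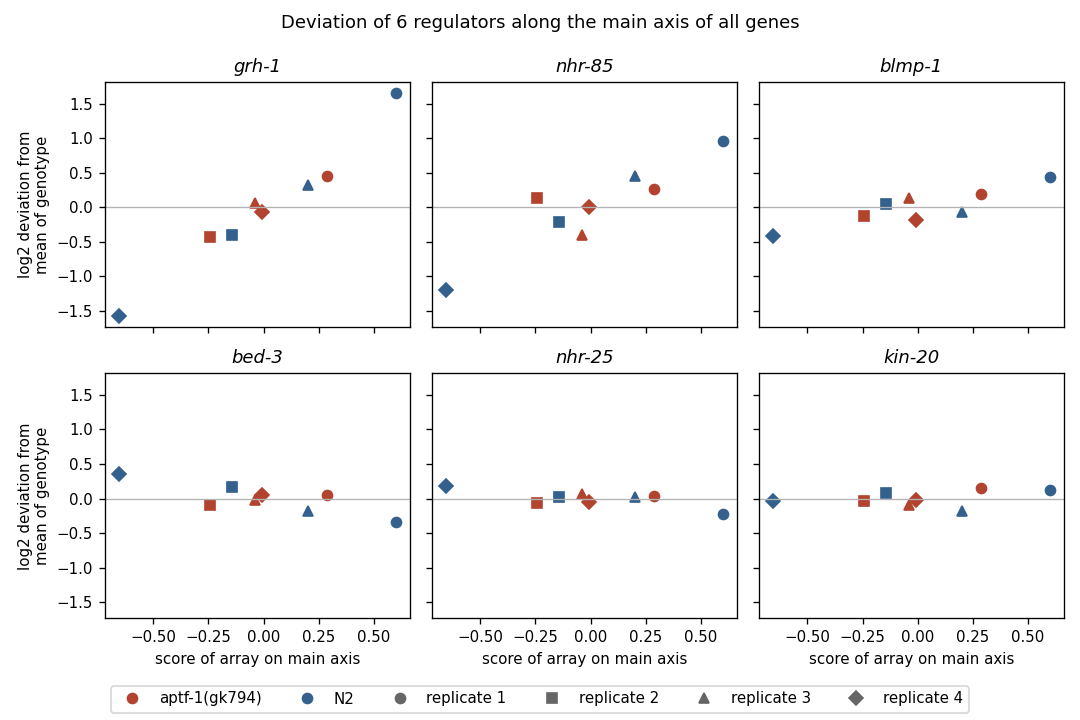
Deviation of 6 regulators from the mean of their genotype (log2, vertical) against the score of the array on the main axis of all genes (horizontal, arbitrary units), with a symbol per replicate, aptf-1(gk794) in red and N2 in blue. grh-1 climbs along the axis (r of 0.984), nhr-85 and blmp-1 less closely, bed-3 and nhr-25 run against it, and kin-20 shows little relation (0.343).

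As a check of stage, the regulators were set against an index of cuticle building, the mean of 23 genes of the embryonic matrix and cuticle, 13 of them collagens. The index was 0.846, 1.21, 1.84 and 0.442 in aptf-1 mutants and 1.19, 1.15, 0.47 and 0.545 in N2. Samples of both genotypes were high and low, and the genotypes differed by 0.246 (exact two-sided permutation test, p = 0.571). The collagens carried most of this range, from 0.668 to 2.83 in the mutants and from 0.664 to 1.91 in N2 when averaged alone. The log2 values were averaged without scaling, so the few collagens that swing most weigh most in the index. For example, sqt-1 read 2.75 in aptf-1 replicate 3 and -6.17 in aptf-1 replicate 4, the samples with the highest and the lowest index. The other 10 genes of the index, of the matrix and not collagens, averaged 0.165, 0.132, 0.55 and 0.148 in the mutants and 0.278, 0.163, 0.217 and -0.376 in N2. N2 replicate 4 was the lowest sample and aptf-1 replicate 3 the highest in these genes. Both sets differed in their relation to the main axis, with r of -0.0244 for the collagens and 0.633 for the matrix genes over 8 arrays, given as descriptions without a test. Among the mutants, replicates 3 and 4, with an index of 1.84 and 0.442, had grh-1 values of -4.82 and -4.95. N2 replicates 1 and 4 had an index of 1.19 and 0.545 and matrix gene means of 0.278 and -0.376. Their grh-1 values were -3.63 and -6.85. Both pairs are examples and not a test.

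lin-42 had the largest r with the whole index over all 8 samples, although by rho nhr-23 and blmp-1 were nearer. It had r of 0.705 and rho of 0.452 over 8 samples (exact permutation p = 0.0461 and 0.267, adjusted over 9 genes 0.368 and 0.602). Without the 2 samples farthest from the median of the index, aptf-1 replicates 3 and 4, r was 0.497 (exact permutation p = 0.308), and without aptf-1 replicate 3 alone it was 0.373. nhr-23 had r of 0.6 and rho of 0.762 (exact permutation p = 0.116 and 0.0368, adjusted 0.368 and 0.331), and without those samples r was 0.545. blmp-1 had r of 0.59 and rho of 0.619 (exact permutation p = 0.123 and 0.115), with r of 0.584 without those samples. The r of the other 6 genes lay between -0.128 and 0.373. None of the 9 genes passed after adjustment, and with 4 arrays per slide no value within a slide was computed.

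Over all 8 samples r was larger in size against the matrix genes alone. This did not hold for rho in every gene: that of nhr-23 was 0.762 with the whole index and 0.405 with the matrix genes. nhr-23 then had r of 0.893 and rho of 0.405 (exact permutation p = 0.0148 and 0.327, adjusted 0.0895 and 0.42), and lin-42 r of 0.801 and rho of 0.69 (exact permutation p = 0.0199 and 0.0694, adjusted 0.0895 and 0.187). Both rested on the 2 samples farthest from the median, N2 replicate 4 and aptf-1 replicate 3, since r without them was -0.463 for nhr-23 and 0.253 for lin-42. For grh-1 r was 0.734 and rho 0.81 (exact permutation p = 0.0446 and 0.0218, adjusted 0.1 and 0.187), and without these samples r was 0.76. blmp-1 had r of 0.77 and rho of 0.714 (exact permutation p = 0.0375 and 0.0576, adjusted 0.1 and 0.187), with r of 0.617 without them. nhr-85, tim-1 and bed-3 had r of 0.613, 0.594 and -0.45 and rho of 0.476, 0.667 and -0.619, with exact permutation p of at least 0.0831. kin-20 and nhr-25 had r of -0.127 and -0.075. Without the 2 farthest samples r was -0.902 for bed-3 and -0.871 for nhr-25 (exact permutation p = 0.0292 and 0.0361, not adjusted). For nhr-85, tim-1 and kin-20 it was then 0.677, 0.518 and 0.192. Over all 8 samples 0 of 9 genes passed after adjustment here too.

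Other genes of the same pathways were counted from lists. Over all tested genes 0.041% passed, so 0 passing in a short list says little, and the median log2 difference was -0.0175. Of 14 heterochronic genes, which set the order of larval cell fates, 13 were tested and 0 passed. Their median log2 difference was 0.155 and 10 were above 0, beside 44.8% of all genes. lin-29 and hbl-1, both encoding zinc finger transcription factors, had the largest differences at 0.22 and 0.21. Of 25 molting effectors 24 were tested and 0 passed, with a median of 0.103 and 20 above 0. This median was 0.0243 without N2 replicate 4. The largest were noah-1, an apical matrix protein, at 0.43 (SE 0.28) and mlt-10 at 0.33 (SE 0.26). bli-1, a collagen of the adult cuticle, was well above background on 0 arrays.

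Of 8 other epidermal and molting factors 0 passed, with a median of 0.0532. peb-1 differed by 0.42 (SE 0.24) and lin-26, a factor of epidermal fate, by 0.20 (SE 0.12). Of 9 other relatives of clock genes 0 passed, with a median of -0.00236. The largest differences were -0.41 (SE 0.37) for lin-23, an F-box protein, and 0.15 (SE 0.18) for aha-1, a bHLH-PAS protein. For the heterochronic genes the median also turned without N2 replicate 4, to -0.0342.

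For each regulator the gene with the most similar deviations from the genotype means was sought among 4882 genes with at least 2 tested probes. For grh-1 it was tbce-1 (r of 0.996 over 8 arrays), for nhr-85 zyx-1 (0.992), for bed-3 asb-2 (0.99), for blmp-1 unc-104 (0.988) and for kin-20 W04G5.12 (0.987). nhr-23 was nearest to fubl-2 (0.983), nhr-25 to Y53C10A.1 (0.975), lin-42 to dpf-6 (0.972) and tim-1 to rnr-2 (0.955). The number of genes with r of at least 0.9 was 513 for grh-1, 266 for nhr-85, 221 for blmp-1 and 110 for bed-3, against 11 for kin-20, 20 for nhr-23, 22 for tim-1, 41 for nhr-25 and 50 for lin-42. These r values are descriptions of 8 arrays that share the axis above. Each partner is the best of 4882 genes over 8 arrays, so a high r comes with the choice. W04G5.12, the partner of kin-20, was dim on all arrays, at -7.96 to -7.15.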

How the data were processed

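RNA of 4 aptf-1(gk794) and 4 N2 samples was labelled with Cy3 and hybridised to 1-colour Agilent arrays, which the authors scanned and processed with Agilent Feature Extraction 10.7.3.1. The deposited scanner files hold the processed signal as an intensity on a linear scale after the software's own background correction, with spot and background median intensity beside it. A log2 table, which the authors deposited as normalized values, served as an alternative. For the main values, control spots and outlier spots were left out, log2 of the processed intensity minus that of the 75th percentile of the array was taken, spots of a probe were averaged, and a probe was tested when the software marked it well above background on 4 or more of the 8 arrays. No spot was saturated. The intensity at the 75th percentile ranged from 2244 to 3684, and the number of arrays limits the precision.

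Genes were named by matching the systematic name of the probe to the RefSeq table of WBcel235, so names were used and no coordinates. The genotypes were compared by lmFit and eBayes of limma (version 3.58.1, under R 4.3.3, Benjamini-Hochberg adjustment over all tested probes or genes). The fit was run on simulated data in which each probe varied independently of the others. On these arrays many genes vary together, so the simulation does not show how the fit behaves here. Single values used exact two-sided permutation tests, over 70 assignments of the 8 samples for a difference, over all 40320 pairings for a correlation with the stage index, and over 576 permutations within genotypes for the main axis. The members and lists were chosen with earlier results of these data known. Named were all members and their probes, aptf-1, the genes of each list that passed or else the 2 with the largest absolute difference, and the most similar gene of each member. Marker genes were named as examples. Alternatives changed the scaling, background, filter, array weights, test, block, gene value and source, and left out each array in turn. The main axis, its tests and its use as a covariate were added after seeing the data. So were leaving out N2 replicates 1 and 4 and the contrast between nhr-25 probes. The tests on the matrix genes beyond r and its adjusted p, and the 0.06 limit with the replicate block, were also added then.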

Additional observations from a re-analysis of the deposited data

How the results depend on the processing

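No member probe or gene passed under any alternative. The smallest adjusted p of a member gene was 0.353 (limma, tim-1). tim-1, nhr-25 and bed-3 kept their direction in all 25 alternatives. lin-42 turned to -0.0959 with no filter, with a filter on at least 1 array or with all probes averaged, each of which adds the dim probe. With array weights kin-20 was 0.00203, nhr-23 -0.0335, blmp-1 -0.0387 and the heterochronic median 0.0131. kin-20 was 0.0132 with normexp and 0.0155 without N2 replicates 1 and 4. For the dim genes grh-1 and nhr-85 the difference shrank with normexp, to 0.119 and 0.0863. With an array left out, log2 differences ranged from 0.118 to 0.272 for lin-42, -0.0864 to 0.0106 for kin-20, -0.136 to -0.0253 for tim-1, 0.0555 to 0.252 for nhr-23, 0.133 to 0.273 for nhr-25, 0.0505 to 0.282 for bed-3, -0.136 to 0.585 for nhr-85, -0.122 to 0.952 for grh-1 and -0.0273 to 0.255 for blmp-1, the median of the 9 genes from -0.0273 to 0.225 and the list medians from -0.0342 to 0.242 (heterochronic), 0.0243 to 0.167 (molting effectors), 0.00777 to 0.114 (other epidermal and molting factors) and -0.0717 to 0.0249 (other clock relatives). The values below 0 of nhr-85, grh-1, blmp-1 and the medians of the 9 and of the heterochronic genes came without N2 replicate 4. The cause was not tested.

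Correlations with the stage index that changed sign were those of kin-20 (-0.000534 with quantile normalization, -0.0134 with the deposited table, -0.127 without collagens), nhr-85 (-0.0584 with the array median), bed-3 (0.0164 with the array median) and nhr-25 (-0.075 without collagens, -0.179 as deviations from the genotype means). With an array left out these ranged from -0.227 to 0.574 for kin-20, -0.337 to 0.343 for nhr-85, -0.394 to 0.0437 for bed-3 and -0.421 to 0.386 for nhr-25.

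The 18 probes called over the whole array became 38 with array weights, 3 by the adjusted and 174 by the unadjusted p of the methods' t-test, 264 by the unadjusted p of limma, 11 with a slide block, 11 without N2 replicates 1 and 4, and 4 to 14 with an array left out. Same-numbered samples deviated together with r of 0.52, 0.283, -0.116 and 0.0912, not all above 0.1, so they were not treated as pairs. With the replicate block 0 probes were called at 0.05, though 10 lay just above, under an adjusted p of 0.06, and aptf-1 was at -2.05 with an adjusted p of 0.0523 (limma); 0 member genes were called. By the methods' t-test aptf-1 was at -2.05 with an adjusted p of 0.0594. The median N2 SD was 0.346 among the dimmest of 4 level classes, which holds lin-42, nhr-23, nhr-85 and grh-1, and 0.171 among the brightest. Within the dimmest class the N2 SD was 0.157 for lin-42 and 0.269 for nhr-23, but 0.933 for nhr-85 and 1.35 for grh-1. In the brightest class it was 0.318 for bed-3 and 0.132 for kin-20. Whether the signal sets the precision was not tested.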

Other observations

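Several cuticle collagens swung widely over these samples. sqt-1 averaged -0.85 ± 4.05 in aptf-1 mutants and -1.62 ± 3.18 in N2 (SD, n = 4 each), dpy-13 1.60 ± 2.51 in the mutants and 0.34 ± 1.05 in N2, and rol-6 0.37 ± 2.17 in the mutants and -0.33 ± 1.00 in N2, all as log2 values on the scale of the report. sqt-3, another cuticle collagen, was steady at 5.48 ± 0.21 in the mutants and 5.21 ± 0.20 in N2. dpy-8 had an SD of 1.87 in the mutants and 2.17 in N2, and dpy-9 of 1.34 in the mutants and 1.65 in N2. None of these 6 genes was called, and all 6 are among the collagens of the stage index. They were chosen after their values were seen.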
